A study of Mus musculus with 20 samples.

Results

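Cytosolic ribosomal proteins are the protein parts of the ribosome outside mitochondria. Their genes were taken as every symbol that starts with Rpl (large subunit) or Rps (small subunit) followed by a digit, together with Rplp0, Rplp1, Rplp2 and Rpsa. Kinase genes of the Rps6k family, Rps19bp1 and symbols marked as pseudogenes were left out. The rule used names and no measured values, and found 82 genes, all of them in both count tables, which held 11746 entries for GFP-high and 11779 entries for GFP-low cells. Of the 82 genes, 77 encode the standard proteins of the ribosome, 46 of the large and 31 of the small subunit. The other 5 are variants or near copies of such genes (Rpl22l1, Rpl36al, Rpl7l1, Rps27l and Rps27rt). All 82 genes passed the filter on low counts in every comparison.

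RNA was sequenced from small-intestinal epithelium of C57BL/6J mice aged 8 weeks. All mice carried an Lgr5-GFP reporter, in which GFP marks cells that use Lgr5, a receptor of crypt stem cells. Knockout (KO) mice were Itgb7-/- and wild-type (WT) mice were Itgb7+/+ for integrin beta 7, a subunit of the adhesion receptors with which lymphocytes enter and stay in the gut. Crypt cells negative for a dead-cell dye and for blood, endothelial and red cell markers, and positive for EpCAM, were sorted by GFP. The labels call GFP-low cells transit-amplifying cells, the dividing daughters of stem cells, and GFP-high cells stem cells. The groups were KO GFP-low, KO GFP-high, WT GFP-low and WT GFP-high, with 5 libraries each. KO mice were numbered 2, 3, 4, 5 and 6, WT mice 1, 3, 6, 7 and 8, and values below follow that order. The labels give neither the construct behind the reporter nor the deleted segment of Itgb7. They number the mice and say no more of how the libraries of a group were made, so p-values measure the spread between these samples.

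Each ribosome carries 1 copy of nearly every ribosomal protein, and a dividing cell spends much of its transcription on making ribosomes. Most of the messenger RNAs of these proteins begin with a run of pyrimidines, the 5′ terminal oligopyrimidine (TOP) motif. Through it the kinase complex mTORC1 and the RNA-binding protein Larp1 adjust their translation and stability together. In the crypt, ribosome production is known to go with stem cell and progenitor division. Messenger RNA levels, as measured here, say nothing of how much protein or how many ribosomes were made.

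Starts of some of these genes are shown because the TOP motif is what the family is known for at the sequence level. Each line gives 15 bases before and 15 bases from the annotated start, read 5′ to 3′ on the gene's strand, from the RefSeq promoter table for GRCm38.p6. Capitals mark an unbroken run of at least 5 pyrimidines that holds the start base. The genes were chosen after their values were seen. The first 4 lines are standard members, all among the 14 of 62 genes with the exact match counted below. The last 2 lines are variant genes whose start base lies in no such run. The lines do not contrast standard with variant genes. Only 13 of the 57 standard genes with a listed start (22.8%) had the exact match, and the near copy Rps27rt had it too. In Rpl22l1 a run of pyrimidines begins at the base after the start base, so it counts under the wider window below.
Rps6, chr4:86857353-86857382, minus strand: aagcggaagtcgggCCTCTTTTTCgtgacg
Rpl15, chr14:18270972-18271001, minus strand: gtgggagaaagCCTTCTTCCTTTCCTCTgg
Rps18, chr17:33955651-33955680, minus strand: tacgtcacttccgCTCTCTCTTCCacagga
Rps27, chr3:90213634-90213663, minus strand: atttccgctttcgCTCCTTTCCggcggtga
Rpl36al, chr12:69184053-69184082, minus strand: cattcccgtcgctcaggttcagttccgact
Rpl22l1, chr3:28805493-28805522, plus strand: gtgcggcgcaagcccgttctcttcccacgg

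The table held 62 of the 82 genes, with 73 starts. A cytosine followed by at least 4 pyrimidines exactly at an annotated start was found in 14 of the 62 genes (22.6%), against 3.01% of all 27025 genes in the table. Allowing the run to begin up to 10 bases to either side gave 59.7% of members and 34.4% of all genes. In the windows of 250 bases before and 50 bases after the start, read on both strands, CCGGAAG, a core bound by Ets factors, was in 40.3% of members, 9.93% of all genes and 21.5% of tested genes that were not members. AAGATGG, a core bound by Yy1 that can overlap a start codon, was in 16.1% of members, 7.28% of all genes and 8.83% of tested genes that were not members. CACGTG, the E-box bound by Myc, was in 9.68% of members, 8.09% of all genes and 12.0% of tested genes that were not members. TATAAA was in 11.3% of members, 15.7% of all genes and 8.58% of tested genes that were not members, so for these last motifs the order depends on the genes compared with. A match is a string of letters and not a measured binding site.

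The 20 libraries held 20900412 to 27838403 counts. Epcam, the epithelial marker used in the sort, lay between 515 and 709 CPM (counts scaled to a common library total with TMM factors) in every library. Lgr5 was 7.00 ± 2.38 CPM in KO GFP-low against 105 ± 11.1 CPM in KO GFP-high, and 12.9 ± 6.71 CPM in WT GFP-low against 102 ± 20.0 CPM in WT GFP-high libraries (SD, n = 5 each). Transcripts of Itgb7 are not analysed here, so no measured level stands behind the genotype labels. GFP-low libraries also held more transcripts of mature cells, although their label names dividing cells. The 21 Paneth and 10 goblet markers held by both tables took 14.4 ± 4.81% of counts in KO GFP-low against 4.87 ± 1.52% in KO GFP-high, and 19.8 ± 8.12% in WT GFP-low against 5.40 ± 2.72% in WT GFP-high libraries. Of the leukocyte, stroma and red cell lists, Ptprc, Cd3e, Cd79a, Col1a1, Pecam1 and Hba-a1 were among the markers that the tables did not both hold.

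Ribosomal protein transcripts took a smaller share of counts in GFP-low cells than in GFP-high cells of both genotypes. The 82 genes together took 6.47 ± 0.670% of counts in KO GFP-low against 10.2 ± 0.374% in KO GFP-high libraries (SD, n = 5 each). In WT mice the shares were 6.05 ± 0.911% in GFP-low and 10.6 ± 1.22% in GFP-high libraries. The highest GFP-low library, KO mouse 2, reached 7.42%, and the lowest GFP-high library, WT mouse 3, was at 9.18%, so the populations did not overlap. A share falls when other transcripts rise, and the Paneth and goblet transcripts moved the opposite way. With those markers taken out of the total, the ribosomal protein share was 7.55% in KO GFP-low against 10.8% in KO GFP-high, and 7.52% in WT GFP-low against 11.2% in WT GFP-high libraries. The highest GFP-low library then stood at 8.11% and the lowest GFP-high library at 9.49%. In these bulk samples, less of a transcript in every cell and fewer cells that hold it cannot be told apart.

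**Figure D1:**
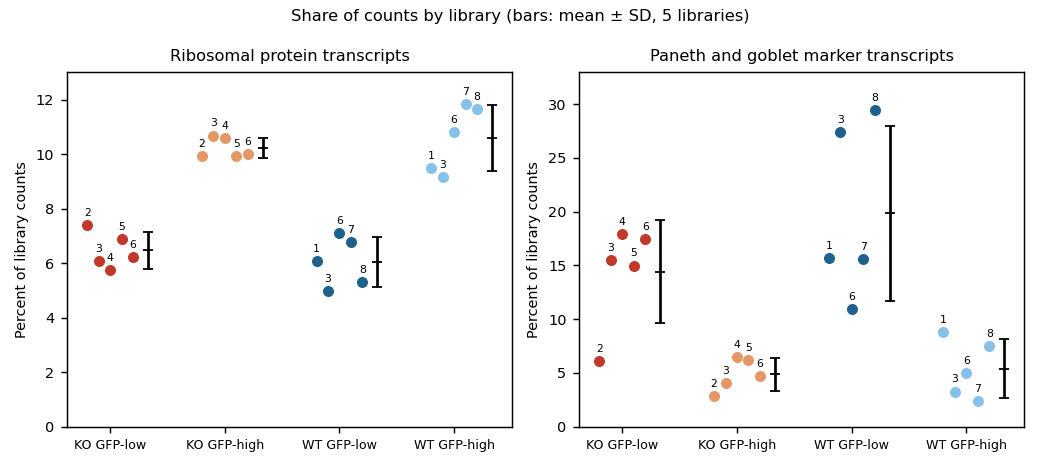
Share of library counts (percent) taken by the 82 ribosomal protein genes (left) and by Paneth and goblet markers (right) in each library; points carry mouse numbers and black bars give mean ± SD of 5 libraries. All GFP-low libraries lie at or below 7.42% for ribosomal protein transcripts and all GFP-high libraries at or above 9.18%, while the marker share is higher on average in GFP-low cells of both genotypes.

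The subunits moved nearly together. The standard large subunit genes took 3.70 ± 0.335% of counts in KO GFP-low against 5.80 ± 0.187% in KO GFP-high, and 3.44 ± 0.504% in WT GFP-low against 5.96 ± 0.633% in WT GFP-high libraries. Small subunit counts per large subunit count were 0.736 ± 0.0287 in KO GFP-low against 0.755 ± 0.0148 in KO GFP-high, and 0.745 ± 0.0178 in WT GFP-low against 0.768 ± 0.0192 in WT GFP-high libraries. These ratios overlapped between the populations. Per kilobase of annotated exon, 79 of the 82 genes stood in the top 10% of 11168 genes with a length, and 26 in the top 1%. The median of all genes was 4.43 CPM per kb, and the lowest member, Rpl22l1, averaged 22.0 ± 1.66 in KO GFP-low against 29.5 ± 4.02 in KO GFP-high, and 23.5 ± 3.05 in WT GFP-low against 29.7 ± 3.90 CPM per kb in WT GFP-high libraries. In WT GFP-high cells the order was led by Rplp1 (4205 CPM per kb) and Rpl29 (4021 CPM per kb), followed by Rplp0 (2905 CPM per kb). Rplp1 and Rpl29 differed by less than the SD of Rplp1, which was 869 CPM per kb. By the longest and by the principal transcript Rpl29 led instead, at 5359 and 6177 CPM per kb. The lowest there were Rps24 (68.0 CPM per kb), Rpl7l1 (43.6), Rps15a (37.9) and Rpl22l1 (29.7). The annotated exons of Rps24 and Rps15a span 6256 and 6270 bases, far more than those of Rplp1 at 499 bases, and by the principal transcript Rps24 left the lowest 4. Levels of genes with unlike annotations depend on that length.

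GFP-low cells of KO mice had lower ribosomal protein transcripts than GFP-high cells in 64 of the 82 genes, by edgeR's quasi-likelihood test at an adjusted p of 0.05. Such a fall was called in 24.4% of all 11282 genes tested. The gene that rose was Rpl36al, and 17 genes did not pass in either direction; rises were called in 26.2% of all genes, and a change in either direction in 50.5%. The median log2 fold change of the members, GFP-low over GFP-high, was -0.39, against -0.01 over all genes tested, and 78 members lay below 0, as did 50.6% of all genes. The standard large subunit genes fell in 36 of 46 cases (median -0.39) and the small subunit genes in 26 of 31 cases (median -0.41).

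WT mice gave a like picture, with falls in 55 genes and the rise again in Rpl36al, while 26 genes did not pass. Falls were called in 21.4% and rises in 22% of the 11281 genes tested, or a change in either direction in 43.4%. The median member log2 fold change was -0.43, against -0.01 over all genes, and 80 members lay below 0, as did 51.3% of all genes. Large subunit genes fell in 31 of 46 cases (median -0.43) and small subunit genes in 23 of 31 (median -0.45). WT GFP-low mice 3 and 8 held the most Paneth and goblet transcripts. Without these mice, a setting chosen after seeing the data, the median was -0.45 with 22 falls among 82 members and falls in 8.29% of all genes, and Rpl36al no longer passed.

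The size of the difference was narrow within the family: the interquartile range of the members was 0.16 log2 units in KO and 0.14 in WT mice, against 0.73 and 0.71 over all genes. Of the members that fell, 52 did so in both genotypes, which is 94.5% of the WT falls and 81.3% of the KO falls. The same overlap was not counted over all genes, so it cannot be called particular to the family. Rpl35, Rplp2 and Rps14 passed in WT mice alone and 12 genes in KO mice alone, but no member passed the test of the difference between the genotypes, given below. Groups did not overlap, with all GFP-low libraries lower, for 49 members in KO mice (17.3% of all genes) and 34 in WT mice (13.7% of all genes). They did not overlap, with all GFP-low libraries higher, for 1 member in KO mice (18.2% of all genes) and 1 in WT mice (15% of all genes).

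**Figure D2:**
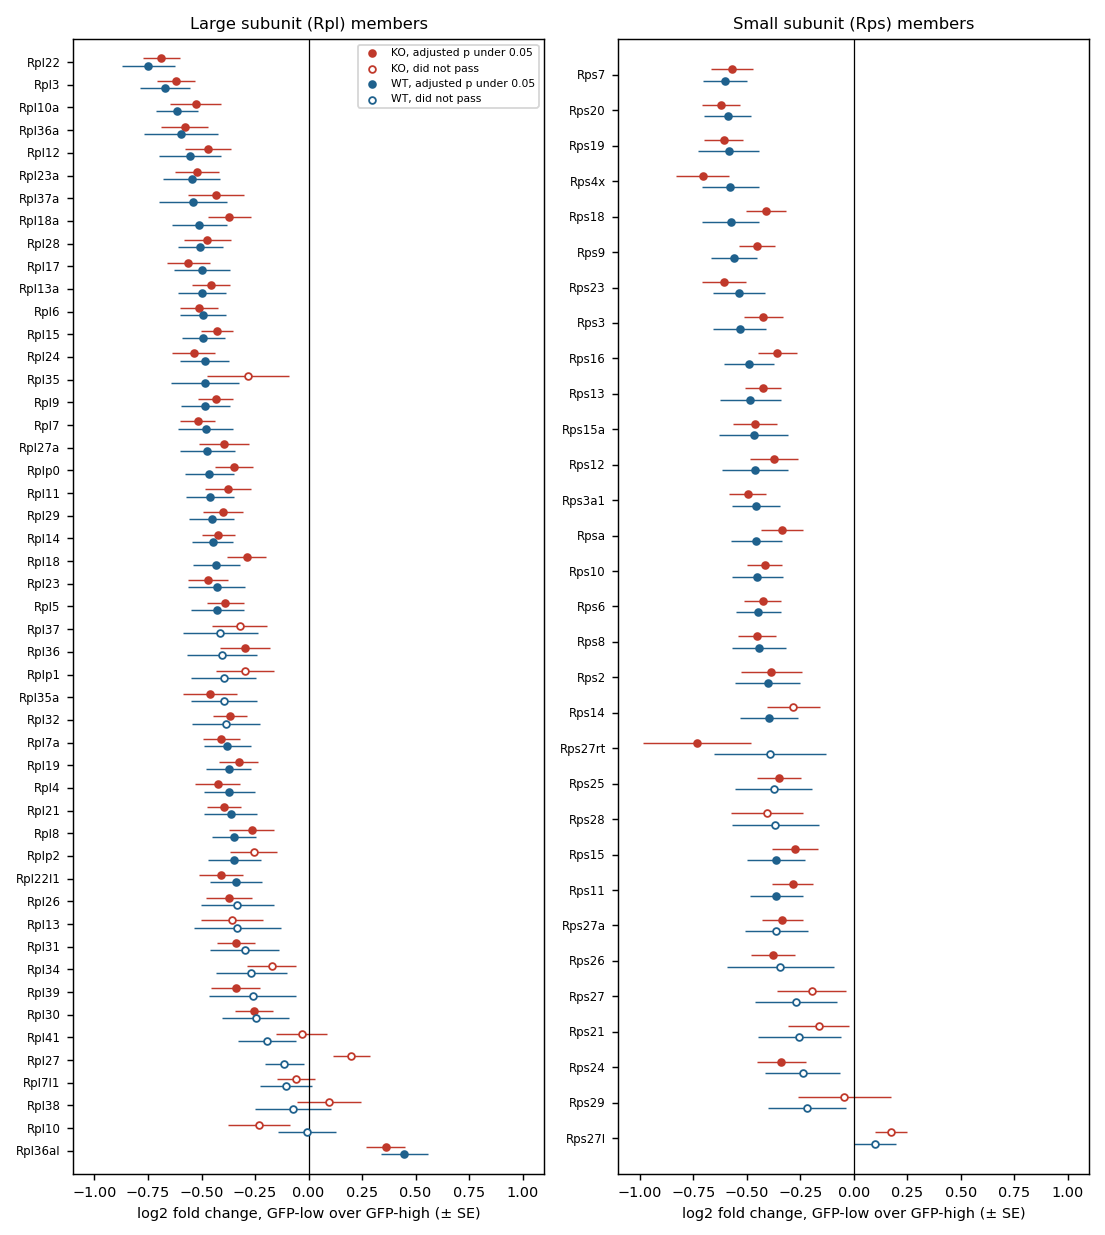
log2 fold change of 80 ribosomal protein genes, GFP-low over GFP-high (x axis, ± SE), in KO (red) and WT (blue) mice, large subunit genes left and small subunit genes right, ordered by the WT value. Filled points passed an adjusted p of 0.05 in edgeR's test; 62 KO and 53 WT points pass below 0, and Rpl36al passes above 0 in both genotypes.

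The largest WT fall was that of Rpl22, an RNA-binding protein of the large subunit, which also had the smallest p in KO mice. Rpl22 measured 135, 139, 125, 120.0 and 137 CPM in KO GFP-low libraries, against 186, 227, 225, 199.7 and 227 CPM in KO GFP-high libraries. In WT mice it measured 124, 119, 149, 163 and 138 CPM in GFP-low libraries and 196, 196, 241, 271 and 261 CPM in GFP-high libraries. Every GFP-low library was below every GFP-high library, in either genotype. Its log2 fold change was -0.69 ± 0.09 in KO mice (SE, adjusted p = 2.07e-05) and -0.75 ± 0.12 in WT mice (adjusted p = 0.000467), by edgeR's test.

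The smallest p in WT mice was that of Rpl10a, a protein of the stalk next to the exit site for transfer RNA. Rpl10a measured 456, 394, 430.4, 615 and 476 CPM in KO GFP-low libraries, against 678, 674, 808, 638 and 648 CPM in KO GFP-high libraries. In WT mice the values were 460.1, 444, 508, 479 and 474 CPM in GFP-low and 670.4, 636, 739, 767 and 811 CPM in GFP-high libraries. The groups did not overlap in either genotype, although KO mouse 5 came close. The log2 fold change was -0.53 ± 0.12 in KO (edgeR adjusted p = 0.00209) and -0.62 ± 0.10 in WT mice (adjusted p = 0.00031).

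Near these stood Rps20, a protein of the head of the small subunit, with a log2 fold change of -0.62 in KO and -0.59 in WT mice. Rps4x, encoded on the X chromosome, had -0.71 ± 0.12 in KO and -0.58 ± 0.13 in WT mice. Rps7, a small subunit protein needed for processing of ribosomal RNA, had -0.57 in KO and -0.60 in WT mice. Rps27rt, a retrogene copy of Rps27, had the most negative KO value (-0.73 ± 0.25, edgeR adjusted p = 0.0272), with KO GFP-low values of 22.2, 27.5, 12.0, 30.5 and 35.8 CPM and KO GFP-high values of 42.2, 45.5, 23.9, 51.2 and 52.1 CPM. These groups overlapped, and reads of Rps27rt and Rps27 may be shared between them by the authors' counting.

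By their place in the ribosome the members moved as follows. Of the stalk that recruits translation factors, Rplp0 fell in both genotypes, with -0.35 ± 0.09 in KO and -0.46 ± 0.11 in WT mice. Its level averaged 3515 ± 296 CPM in KO GFP-low against 4511 ± 170.5 CPM in KO GFP-high libraries. Rplp2 fell in WT mice (-0.35 ± 0.12), and its KO value of -0.26 ± 0.11 did not pass (edgeR adjusted p = 0.0682). Rplp1 did not pass in KO (-0.30 ± 0.14) or WT mice (-0.40 ± 0.15, adjusted p = 0.0506).

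Rpl5 and Rpl11, which enter the ribosome with its smallest RNA and hold back Mdm2, the brake on p53, both fell. Rpl5 averaged 1428 ± 59.1 CPM in KO GFP-low against 1888 ± 153 CPM in KO GFP-high, and 1526 ± 121 CPM in WT GFP-low against 2052 ± 304 CPM in WT GFP-high libraries (SD, n = 5 each). Rpl11 had a log2 fold change of -0.38 ± 0.11 in KO and -0.46 ± 0.11 in WT mice. For each of them the populations did not overlap in either genotype. Of the proteins around the tunnel from which new chains leave, Rpl19 (-0.33 in KO, -0.37 in WT) and Rpl23a (-0.52 in KO, -0.55 in WT) fell in both genotypes. Rpl26 and Rpl39 passed in KO mice (-0.37 and -0.34), with WT values of -0.33 and -0.26, and Rpl35 passed in WT mice (-0.48) with a KO value of -0.28.

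Near the site where peptide bonds form, Rpl3 fell by 0.62 log2 units in KO and by 0.67 log2 units in WT mice. Rpl27a also fell, with -0.39 in KO and -0.47 in WT mice. Rpl10, a protein of the same region that joins the large subunit late, did not pass in either genotype. It averaged 259 ± 31.0 CPM in KO GFP-low against 308 ± 76.5 CPM in KO GFP-high, and 307 ± 34.1 CPM in WT GFP-low against 309 ± 62.0 CPM in WT GFP-high libraries. Rps2, Rps3 and Rps23, which line the entry of messenger RNA and the decoding site, fell in both genotypes, Rps23 by 0.61 log2 units in KO and by 0.54 in WT mice. On the platform where messenger RNA leaves, Rps14 fell in WT mice (-0.40; KO -0.28) and Rps26 in KO mice (-0.38; WT -0.34), and Rps28 did not pass (KO -0.41, WT -0.37).

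Rps6, the small subunit protein phosphorylated downstream of mTORC1, averaged 671 ± 49.5 CPM in KO GFP-low against 909 ± 71.0 CPM in KO GFP-high, and 698 ± 56.6 CPM in WT GFP-low against 952 ± 100.5 CPM in WT GFP-high libraries. Its log2 fold change was -0.43 ± 0.09 in KO and -0.45 ± 0.11 in WT mice. Of genes in which human mutations cause Diamond-Blackfan anaemia, a failure of red cell formation, Rps19, Rpl5, Rpl11, Rps7 and Rps10 fell in both genotypes. Rps24 (-0.34), Rpl35a (-0.46) and Rps26 (-0.38) fell in KO mice, and their WT values of -0.24, -0.39 and -0.34 did not pass. Rps27a, made as a fusion with ubiquitin, fell in KO mice (-0.33), and its WT value of -0.36 did not pass (edgeR adjusted p = 0.0619). Rpsa, once described as a laminin receptor, fell in both (-0.34 in KO, -0.46 in WT).

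Against the family's direction stood Rpl36al, the copy on chromosome 12 of the X-linked large subunit gene Rpl36a. Rpl36al measured 149, 144, 147, 193 and 165 CPM in KO GFP-low libraries, against 126, 125, 126, 119.8 and 129.8 CPM in KO GFP-high libraries. In WT mice it measured 158, 182, 167, 171 and 209 CPM in GFP-low and 129, 109, 124, 136 and 154 CPM in GFP-high libraries. All GFP-low libraries were above all GFP-high libraries of their genotype. The log2 fold change was 0.36 ± 0.09 in KO (edgeR adjusted p = 0.00453) and 0.45 ± 0.11 in WT mice (adjusted p = 0.00584). Scaled by library totals alone it was 0.09 in KO and 0.08 in WT mice and passed in neither, while under that scaling the median of all genes lay at -0.27 in KO and -0.37 in WT mice.

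Rpl36a itself fell: it measured 331, 287, 245, 373 and 329 CPM in KO GFP-low against 415, 526, 497, 451 and 469.7 CPM in KO GFP-high libraries. In WT mice it measured 263, 330.3, 328, 377 and 341 CPM in GFP-low and 396, 341, 482, 617 and 644 CPM in GFP-high libraries. The KO groups were apart, and the WT groups overlapped, since GFP-high mouse 3 lay below GFP-low mouse 7. The ratio of a variant to its parent gene within a library does not depend on scaling. The log2 ratio of Rpl36al to Rpl36a averaged -0.97 ± 0.15 in KO GFP-low against -1.91 ± 0.13 in KO GFP-high libraries (SD, n = 5 each), and -0.88 ± 0.18 in WT GFP-low against -1.90 ± 0.25 in WT GFP-high libraries. The difference was 0.94 in KO and 1.01 in WT mice, each with p = 0.00794 in a two-sided exact permutation test, the smallest that 5 against 5 libraries allow, and 0.0317 after Benjamini-Hochberg adjustment over 16 ratios.

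Rpl22l1, the variant of Rpl22, fell less than its parent. It measured 48.4, 42.5, 45.9, 40.3 and 41.9 CPM in KO GFP-low against 49.7, 60.1, 71.3, 56.4 and 55.4 CPM in KO GFP-high libraries. In WT mice it measured 36.3, 50.5, 46.7, 49.2 and 50.9 CPM in GFP-low and 57.2, 48.0, 57.3, 65.7 and 67.4 CPM in GFP-high libraries. The populations were apart in KO and overlapped in WT mice. The log2 ratio of Rpl22l1 to Rpl22 was 0.41 higher in GFP-low than in GFP-high cells of WT mice (exact permutation p = 0.00794, adjusted 0.0317) and 0.29 higher in KO mice (exact permutation p = 0.0238, adjusted 0.0635).

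Rpl7l1, a gene related to Rpl7, did not pass between populations in either genotype (log2 fold change -0.06 in KO, -0.10 in WT). It measured 136, 148, 128, 121 and 142 CPM in KO GFP-low against 146, 153, 123, 134 and 154 CPM in KO GFP-high libraries, and 134, 135, 129, 175 and 135 CPM in WT GFP-low against 134, 176, 124, 168 and 160.2 CPM in WT GFP-high libraries. The groups overlapped throughout. Rpl7 averaged 1172 ± 49.0 CPM in KO GFP-low against 1693 ± 99.3 CPM in KO GFP-high, and 1184 ± 90.8 CPM in WT GFP-low against 1652 ± 277 CPM in WT GFP-high libraries (SD, n = 5 each), and fell in both genotypes. The log2 ratio of Rpl7l1 to Rpl7 was 0.46 higher in GFP-low cells of KO mice (exact permutation, adjusted p = 0.0317) and 0.37 higher in WT mice (adjusted p = 0.0635).

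Rps27l, a variant of Rps27 known as a p53 target in human cells, had log2 fold changes of 0.17 ± 0.08 in KO and 0.10 ± 0.10 in WT mice that did not pass. Scaled by library totals alone both lay below 0, at -0.08 in KO and -0.26 in WT mice. It measured 153, 137, 131, 153 and 141 CPM in KO GFP-low against 125, 129, 136, 120.4 and 128 CPM in KO GFP-high libraries, and 131, 165, 141, 153 and 161 CPM in WT GFP-low against 131, 124, 142, 144 and 161 CPM in WT GFP-high libraries. Rps27 averaged 260.0 ± 68.7 CPM in KO GFP-low against 301 ± 42.8 CPM in KO GFP-high, and 290.5 ± 46.9 CPM in WT GFP-low against 350.2 ± 101 CPM in WT GFP-high libraries, and did not pass. The ratio of Rps27l to Rps27 did not pass after adjustment in KO (0.40, exact permutation, adjusted p = 0.127) or WT mice (0.33, adjusted p = 0.19). Read by mouse number, the ratio was higher in the GFP-low library of 5 of 5 KO and 5 of 5 WT mice, by 0.07 to 0.78 in KO and 0.13 to 0.48 in WT mice. A paired exact test of 5 mice cannot go below a two-sided p of 0.0625, and the ratios were tested unpaired. The other ratios were also higher in the GFP-low library of all 5 mice of each genotype, except that of Rpl7l1 in WT mice, where 4 of 5 were. None of the 4 ratios passed between KO and WT mice in either population, with adjusted p from 0.395 to 0.929 by the exact permutation test. The WT call on the Rpl22l1 ratio was lost (exact permutation, adjusted p = 0.0635) without any one of GFP-low mice 3, 6 and 8 or GFP-high mice 1, 6, 7 and 8. The KO call on the Rpl7l1 ratio was lost without any one of GFP-low mice 2, 3 and 6 or GFP-high mice 4 and 5. Yet both ratios were apart between the populations, narrowly, whichever library was left out. The lowest GFP-low and highest GFP-high values were -1.773 and -1.777 for Rpl22l1 in WT, and -3.32 and -3.37 for Rpl7l1 in KO mice. With 4 against 5 libraries the exact test moves in coarse steps, so these losses do not show dependence on single mice. Calls were gained for the Rpl22l1 ratio in KO mice without GFP-high mouse 4, and for the Rpl7l1 and Rps27l ratios in WT mice without GFP-high mouse 3.

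**Figure D3:**
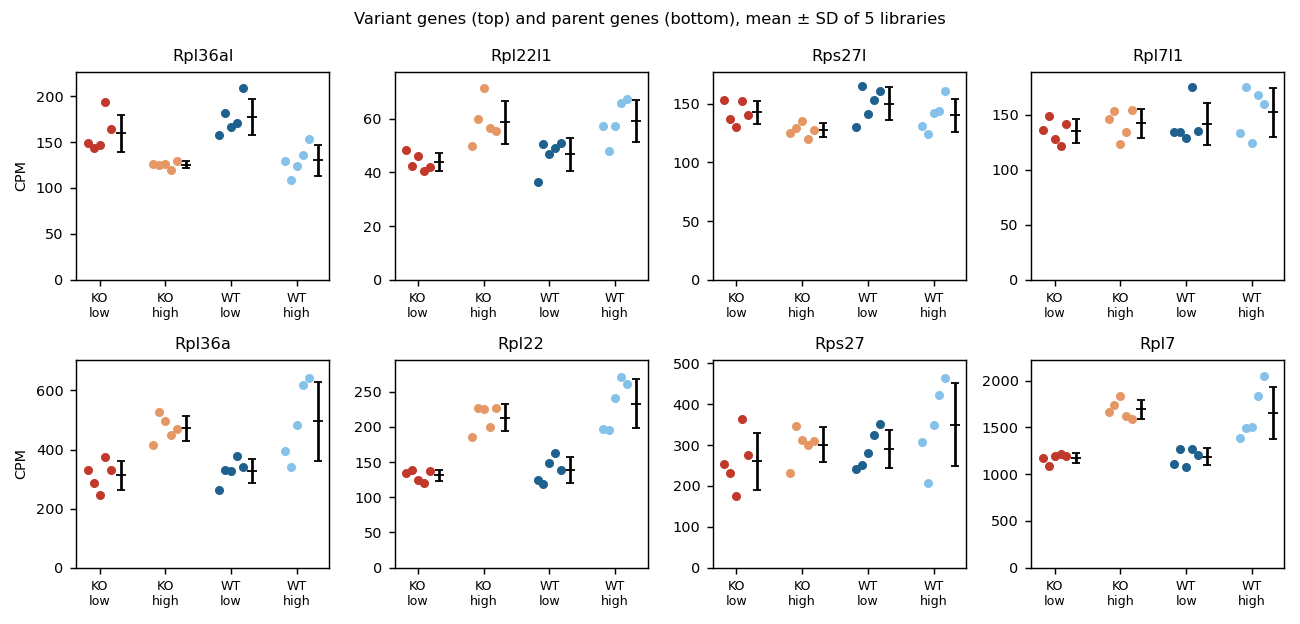
CPM (y axis, from 0) of 4 variant genes (top) and their parent genes (bottom) in each library, by group, with mean ± SD of 5 libraries as black bars. Rpl36al is higher in GFP-low than in GFP-high libraries of both genotypes while Rpl36a is lower, and Rpl7l1 overlaps between all groups while Rpl7 is lower in every GFP-low library than in any GFP-high library.

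Other members with the smallest differences were Rpl38, Rpl41, Rps29 and Rpl27. Rpl38, which in mouse embryos is needed to translate certain Hox messages, had 0.10 ± 0.15 in KO mice, which was -0.17 when scaled by library totals alone, and -0.07 ± 0.18 in WT mice. Rpl41, the shortest ribosomal protein, had -0.03 ± 0.12 in KO and -0.20 ± 0.14 in WT mice. Rps29, a small subunit protein that binds zinc, had -0.04 ± 0.22 in KO and -0.22 ± 0.18 in WT mice. None of these passed, nor did Rpl27. Rpl27 had 0.20 ± 0.09 in KO and -0.11 ± 0.09 in WT mice; scaled by library totals alone the KO value was -0.06.

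Members moved together from library to library. The median SD of a member within its group was 0.18 log2 units, and 0.12 once the mean of all members in that library was taken away. The mean deviation of the members from their group ranged from -0.33 log2 units in WT GFP-high mouse 3, where 2 of 82 members lay above their group mean, to 0.27 in WT GFP-high mouse 8, where 81 did. WT GFP-high mouse 3 stood lowest in its group for ribosomal protein share. The least variable member was Rpl15, with a within-group SD of 0.08 log2 units. The most variable were Rps27rt (0.53), Rps29 (0.39), Rps28 (0.36), Rps26 (0.36) and Rps27 (0.34), all small subunit genes. Large subunit genes came close behind, Rpl35 among them (0.33). Rpl15, a large subunit protein, is named after its value was seen. These spreads and shared deviations were not measured for other genes, so moving together cannot be called particular to the family.

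**Figure D4:**
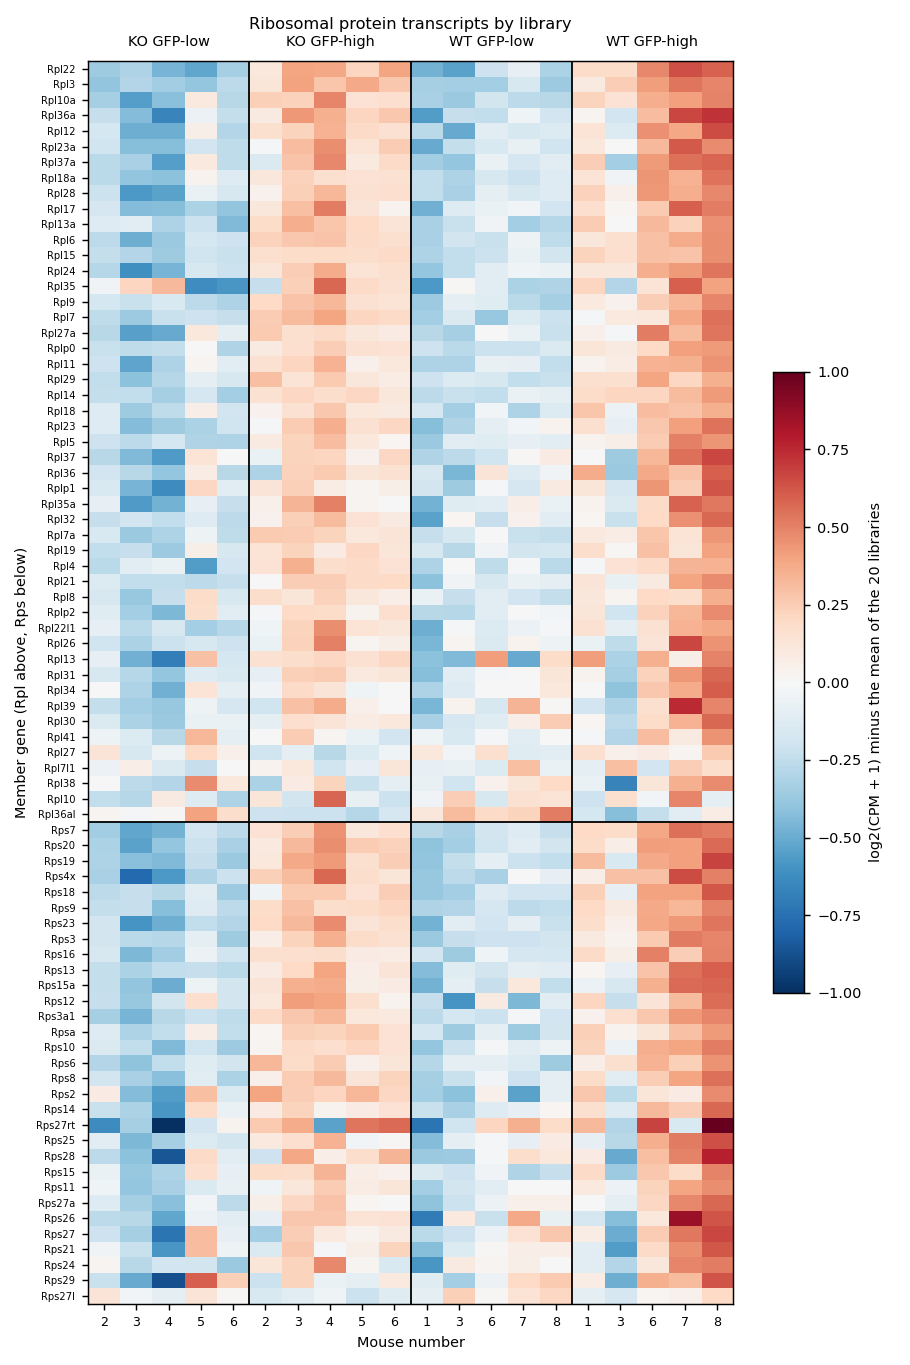
log2(CPM + 1) of 80 genes (rows, large subunit above, small subunit below, ordered by the WT difference) in 20 libraries (columns, mouse numbers below) minus each gene's mean over the 20 libraries; red is higher and blue lower. GFP-low blocks are mostly blue and GFP-high blocks mostly red, and WT GFP-high mouse 3 is paler than the rest of its block.

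Libraries of a genotype with the same number were read as 1 mouse, and within every such pair the median member was lower in GFP-low than in GFP-high cells. The median log2 difference was -0.27, -0.57, -0.64, -0.17 and -0.33 in KO mice 2, 3, 4, 5 and 6. In WT mice 1, 3, 6, 7 and 8 it was -0.43, -0.15, -0.38, -0.47 and -0.62. The smallest number of lower members was 56 of 82 in WT mouse 3, and the largest 80 in KO mouse 3. Lower genes were not counted over all genes in these pairs, so the counts cannot be called particular to the family.

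No ribosomal protein gene passed the test between KO and WT mice, in either population. In GFP-low cells, 0 of 82 members passed edgeR's test, where 1 gene of 11778 (0.00849%) did. At an unadjusted p under 0.05 there was 1 member, against 6.32% of all genes. DESeq2 called 0 members, with 11 falls and 1 rise among 11777 genes. The median log2 fold change, KO over WT, was -0.07, and 67 members were below 0, against 50.8% of all genes. Scaled by library totals alone, that median was 0.08 while all genes had 0.14.

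In GFP-high cells, 0 members passed, as did 0 of 11745 genes (0%); 1 member had an unadjusted p under 0.05, against 9.79% of all genes. DESeq2 called 0 members there, with 94 falls and 49 rises among 11742 genes. The median was -0.09, and 77 members were below 0, against 48.6% of all genes. Members move together within a library, so a shared sign is not 82 separate observations. The 95% interval of the difference stayed within 1.5-fold either way for 78 members in GFP-low cells, the others being Rps27rt, Rpl35, Rps28 and Rps29. It did so for 78 members in GFP-high cells, the others being Rps29, Rps27, Rps27rt and Rps26. Paneth and goblet transcripts averaged 14.4% in KO and 19.8% in WT GFP-low libraries, and their part in these values was not tested.

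**Figure D5:**
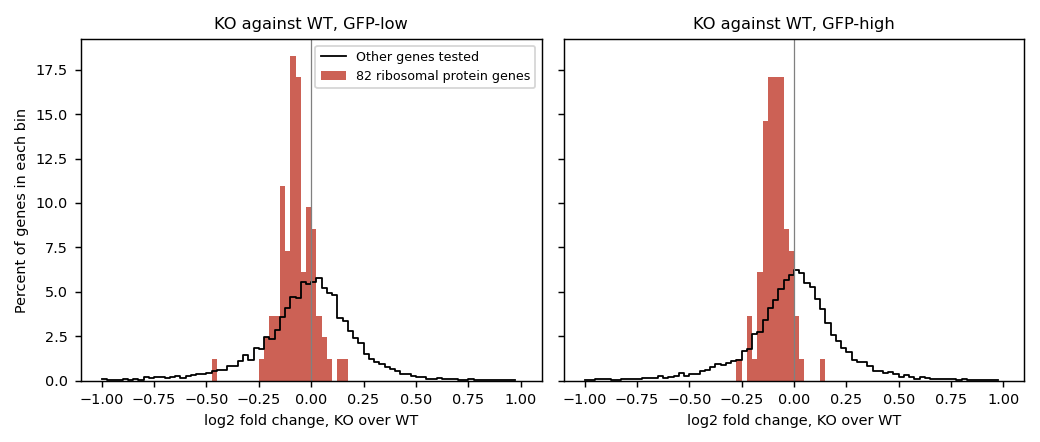
Distribution of log2 fold changes, KO over WT, of the 82 ribosomal protein genes (red bars) and of all other genes tested (black line), as percent of genes per bin, in GFP-low (left) and GFP-high (right) cells. The members lie close together with medians of -0.07 and -0.09, inside the spread of the other genes.

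The lowest unadjusted p in GFP-high cells was that of Rpl27, a large subunit protein. It measured 93.2, 101, 88.1, 97.6 and 104 CPM in KO and 119.7, 111, 113, 109 and 129 CPM in WT GFP-high libraries. No KO library reached the lowest WT library. Rpl27 was the 1 member with such separation, which was found for 0.931% of all genes in that direction and for 0.948% in the other, where no member had it. The log2 fold change was -0.26 ± 0.08 and did not pass (edgeR adjusted p = 0.247). In GFP-low cells Rpl27 measured 117, 96.0, 103, 123 and 111 CPM in KO and 116, 105, 119.8, 98.7 and 98.8 CPM in WT libraries, which overlapped. In that population 0 members were separated in either direction, against 0.434% of all genes with KO lower and 0.709% with KO higher. Rpl10 had the lowest unadjusted p in GFP-low cells, at -0.24 ± 0.11 (adjusted p = 0.785 in edgeR's test), with 259 ± 31.0 CPM in KO and 307 ± 34.1 CPM in WT libraries. The highest values, KO over WT, were those of Rpl35 in GFP-low cells (0.16 ± 0.19) and of Rps2 in GFP-high cells (0.13 ± 0.12).

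The difference between populations was also tested for a change with genotype, as the KO effect in GFP-low minus that in GFP-high cells over all 20 libraries. None of the 82 members and none of the 11284 genes passed edgeR's test (0%), and 1 member, Rpl27 (0.30 ± 0.12, adjusted p = 0.9996), had an unadjusted p under 0.05, against 3.13% of all genes. DESeq2 called 0 members. The median member value was 0.03, and 71 members had a 95% interval within 1.5-fold.

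Genes that work with the ribosome were counted by lists, beside falls in 24.4% and rises in 26.2% of all genes in KO mice, and falls in 21.4% and rises in 22% in WT mice. Of 25 tested further genes with a TOP motif or a role in translation, 17 fell and 0 rose in KO mice (median -0.30), and 19 fell and 0 rose in WT mice (median -0.37). Those with the smallest p were Nap1l1, a histone chaperone (-1.23 in KO, -1.24 in WT), Npm1, a nucleolar chaperone (-0.90 in KO, -0.77 in WT), Pabpc1, which binds poly(A) tails (-0.79 in KO, -0.75 in WT) and Eif4b, an initiation factor (-0.68 in WT). That list also holds genes for ribosomal proteins whose names the rule does not catch. Of these, Rack1 fell in both genotypes (-0.25 in KO, -0.44 in WT), and Fau did not pass (0.21 in KO, 0.18 in WT). Of 40 nucleolar genes that make ribosomal RNA and assemble subunits, Npm1 among them, 31 fell and 2 rose in KO mice (median -0.41), and 31 fell and 0 rose in WT mice (median -0.52). Ncl, a nucleolar RNA-binding protein, had -0.79 in KO and -0.67 in WT mice, and Polr1c, a subunit shared by RNA polymerases, -0.55 in KO and -0.58 in WT mice.

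Of 17 chaperones and late assembly factors of ribosomal proteins, 6 fell and 3 rose in KO mice (median -0.17), and 5 fell and 2 rose in WT mice (median -0.15). Tsr2, the escort of Rps26, fell (-0.63 in KO, -0.75 in WT), and so did Rrs1, which helps to place Rpl5 and Rpl11 (-0.98 in KO, -0.78 in WT). Eif6, which keeps the large subunit from joining too early, rose (0.82 in KO, 0.55 in WT). Of 17 genes of mTORC1 and other regulators, 2 fell and 2 rose in KO mice, and 4 fell and 2 rose in WT mice, shares near or below those of all genes. Those with the smallest p in KO mice were Myc and Eif4ebp1. Myc, a transcription factor that drives ribosome production, fell (-0.98 in KO, -1.02 in WT), and Eif4ebp1, a translation repressor that mTORC1 inactivates, rose (1.14 in KO, 1.03 in WT). Of 78 mitochondrial ribosomal proteins, which serve a separate ribosome, 13 fell and 16 rose in KO mice (median 0.03), and 8 fell and 6 rose in WT mice (median 0.02). None of these lists had a gene that passed between KO and WT mice in either population.

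Other measures differed between the populations in the same libraries. All 8 stem cell markers fell, and all 21 Paneth, 10 goblet, 8 enterocyte and 7 enteroendocrine markers tested rose, in both genotypes. Of 5 tuft cell markers, 4 rose in KO and 5 in WT mice. Of 8 listed leukocyte markers 2 were tested, of which Cd14 fell and Lyz2 rose in both genotypes. Lyz2 is also on the Paneth list, so its rise is counted there too. Of 5 stroma and endothelium markers 1 was tested, Vim, which rose by 3.27 log2 units in KO and by 2.42 in WT mice. Of 7 proliferation markers, 6 fell in KO and 3 in WT mice, and none rose. Of 8 genes known to respond to cell dissociation, 6 rose in KO and 3 in WT mice, and their summed level had a median of 2362 CPM in KO GFP-low against 1458 CPM in KO GFP-high, and 2800 CPM in WT GFP-low against 1233 CPM in WT GFP-high libraries. None of 9 listed mitochondrially encoded genes passed. The summed share of all mitochondrially encoded genes, not only those listed, was 3.41 to 4.65% of counts over KO GFP-low and 4.13 to 6.69% over KO GFP-high libraries. In WT mice it was 2.13 to 5.95% over GFP-low and 3.85 to 7.14% over GFP-high libraries. With the Paneth and goblet genes left out of the fit, 65 members fell in KO and 55 in WT mice. In that fit falls were called in 24.211% of all genes in KO and 21.003% in WT mice. The part of the other measures in the ribosomal protein differences was not tested.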

How the data were processed

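Gene-level expected counts came from the authors in 1 deposited table for each population, with unequal column totals, as raw counts have. The programs TopHat2, Bowtie2 and RSEM and the build mm10 are named, without versions or roles, per the submitters' processing notes. RSEM divides reads that fit several genes, so members with near-identical copies or pseudogenes are uncertain individually, and strand is not given. Counts (13.7% of values not whole) were rounded. The lowest mean count of an entry was 16.8 in GFP-low and 17.0 in GFP-high cells. Total counts ran from 20900412 to 27838403 per library.

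The quasi-likelihood test of edgeR 4.0.16 (R 4.3.3) was fitted on whole tables with TMM factors, filterByExpr (minimum count 10) and adjusted p under 0.05 by Benjamini-Hochberg. Comparisons between populations used the 11284 genes held by both tables with a unique name. Those tables were deposited separately, and each was taken as raw. DESeq2 1.42.0 was an alternative. SE came from the F statistic. CPM used 1 TMM scale over 20 libraries; log2 ratios used a prior count of 2. Lengths came from GENCODE M21 on GRCm38. Fold recovery was tested on simulated data. Other settings were scaling, filters, libraries left out and pairing.

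Genes were named by rule: the 6 most negative and 6 most positive members of each comparison, the 5 smallest p, variant pairs, role lists, the 4 highest and lowest levels per length, and the 3 smallest p of other lists. Members and lists were chosen with earlier results of these data known. Same-numbered GFP-low and GFP-high libraries of a genotype deviated together (r from 0.145 to 0.693, each above 0.1), and the numbers were taken to pair the populations. WT mouse 3, at 0.145, correlated more with another number (r = 0.205). Nothing says beyond mouse numbers whether libraries were processed together. Values of some single genes are not reported here; counts, medians and shares include them.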

Additional observations from a re-analysis of the deposited data

Results flagged for a closer look

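Of 228 groups of 5 libraries checked over the named members and shares, 10 held a library whose gap to the nearest of the others exceeded the Dixon limit of 0.71 of the group's range; chance gives about 1 in 20. In KO GFP-low libraries, Rplp0 of mouse 5 was high at 4030 CPM. In KO GFP-high libraries, Rpl10a of mouse 4 was high at 808 CPM and Rpl4 of mouse 3 at 2922 CPM. In WT GFP-low libraries, mouse 1 was low for Rps24 at 251, Rpl5 at 1311, Rps3 at 1989 and Rpl22l1 at 36.3 CPM. WT GFP-low mouse 7 was high for Rpl3 at 2391 and Rpl7l1 at 175 CPM. In WT GFP-high libraries, Rpl18 of mouse 3 was low at 689 CPM. WT GFP-low mouse 1 had a mean member deviation of -0.16 log2 units, the lowest of its group.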

How the results depend on the processing

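DESeq2, its size factors, no filter, and TMM without the members or without Paneth and goblet genes gave 64 to 67 KO falls and 53 to 59 WT falls. In these settings falls were called in 24.21 to 25.33% of all genes in KO and 20.97 to 22.02% in WT mice. Leaving out 1 library gave 56 to 70 KO falls (median -0.43 to -0.37; 21.5 to 23.9% of all genes) and 42 to 67 WT falls (median -0.50 to -0.36; 17.8 to 20.7% of all genes). Rises stayed at 1, except for 2 in KO mice without GFP-low mouse 3, where Rpl27 also passed. Over all genes, rises were then called in 23.9 to 25.9% in KO and 19.9 to 21.9% in WT mice. The replicate block by mouse gave 70 KO falls (27.9% of all genes) and 64 WT falls (25.9%) and moved no count of calls by over 1.5 times. Numbers shared by KO and WT mice (3 and 6) do not pair them (r from -0.32 to 0.04). In a replicate block by number, the difference between KO and WT rests on numbers 3 and 6 alone. Every other number occurs in a single genotype, so this block cannot speak for all libraries. That replicate block called 0 members, with medians of -0.12 in GFP-low and 0.07 in GFP-high cells. Of all genes it called 29 lower and 7 higher in GFP-low and 87 lower and 35 higher in GFP-high cells.

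Library totals alone gave 76 KO falls (42.0% of all genes) and 79 WT falls (43.4%), 0 rises in both, and medians of -0.65 in KO and -0.78 in WT mice, where all genes had -0.27 and -0.37. Without WT mice 3 and 8 there were 22 falls (8.29% of all genes) and 0 rises (12.1% of all genes) from 3 against 3 libraries. The member share without Paneth and goblet genes was 7.55% in KO GFP-low against 10.8% in KO GFP-high libraries, and 7.52% in WT GFP-low libraries. Median level per kb of the longest transcript was 538 CPM in KO GFP-low against 724 CPM in KO GFP-high, and 560.1 CPM in WT GFP-low against 755 CPM in WT GFP-high libraries; per kb of the principal transcript, a length chosen after seeing the data, it was 709.9, 939, 734 and 991 CPM in the same order, against 316, 429, 332 and 442 CPM per kb of all exons.

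Leaving out 1 library, the Rpl22l1 ratio differed between populations by 0.24 to 0.34 in KO and 0.32 to 0.46 in WT mice, the Rpl7l1 ratio by 0.38 to 0.51 in KO and 0.31 to 0.46 in WT mice, and the Rps27l ratio by 0.25 to 0.46 in WT mice. For KO against WT, and for the interaction, no setting called a member. Rps27rt, at 12.0 CPM in its lowest library, rests on the fewest counts.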
